A study of Homo sapiens with 24 samples.

Results

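The 7 genes described here are HMGCS1, IDI1, FDPS, FDFT1, SQLE, LSS and INSIG1, taken by symbol from the tables as targets of SREBP2 in cholesterol metabolism. Of these, 6 were read in a table of 33113 genes and SQLE in a second table, and the tables hold 37967 genes together. The members are 6 enzymes of cholesterol synthesis and the regulator INSIG1, so no member is itself a protein of cholesterol uptake. The RNA came from HCT116 cells, a human colorectal carcinoma line, and from HCT116 oxpl-R cells, which were derived from HCT116 by repeated pulses of oxaliplatin. Each line was sequenced in 4 groups of 3 biological replicates, that is 24 samples in 8 groups. The control groups were untreated, the E1A groups received 0.5 µg/mL doxycycline, the oxaliplatin groups received 25 µM oxaliplatin for 24 h, and the E1A + oxaliplatin groups received both, doxycycline 3 h earlier. All cells, the controls included, carried the doxycycline-inducible transgene for adenoviral E1A. No group without the transgene received doxycycline, so the effects of doxycycline and of E1A cannot be told apart, and the level of the transgene was not analysed here.

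Cells make cholesterol from acetyl-CoA through mevalonate, the isoprenoid farnesyl diphosphate, squalene and lanosterol. When sterols in the endoplasmic reticulum are scarce, SCAP escorts the transcription factor SREBP2 to the Golgi, where proteases release its active part, and the genes of the whole pathway are transcribed together. When sterols are plentiful, INSIG1 holds SCAP and SREBP2 in the endoplasmic reticulum. INSIG1 is itself a target of SREBP2, so its mRNA is widely used as a reading of this loop. Growing epithelial and tumour cells draw on the pathway for membranes and for the prenyl groups of small GTPases.

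The counts of the first table summed to between 24838095 and 37927720 per sample, and the members had between 544 and 11667 counts in a sample, so each was well above the counting limit in all samples. Of the 6 epithelial markers, EPCAM, CDH1, KRT8, KRT18 and CDX2 were present in all samples and CDH17 stayed at or below 0.401 CPM, counts scaled to the size of the library. The leukocyte marker PTPRC and the endothelial marker PECAM1 stayed at or below 0.418 CPM, and the fibroblast gene COL1A1 lay between 13.0 and 40.3 CPM. Within groups, Pearson coefficients of log2(CPM + 1) across genes ranged from 0.964 to 0.997. Libraries differed in how expression followed the GC content of the transcript. In the HCT116 control libraries log2 expression changed by −0.21 to −0.06 per 10% of GC, relative to the mean of all libraries, and in the HCT116 oxaliplatin libraries by 0.19 to 0.39. The 4 HCT116 oxpl-R libraries of replicate 3 stood apart in several of the 7 genes, and values without them are given below where they change a call. This removal was chosen after seeing the data, so its calls are not independent of the values that set these libraries apart. Levels of a gene in bulk RNA are averages, so fewer cells that express it and less RNA per cell cannot be told apart.

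HMGCS1 lies at chr5:43287470-43313512, IDI1 at chr10:1039152-1049119, FDPS at chr1:155308748-155320666, LSS at chr21:46188141-46228824 and INSIG1 at chr7:155297776-155310235 on GRCh38. Near-identical copies took few reads. The pseudogenes of FDPS, FDPSP1 to FDPSP8, had at most 5 counts in a sample, the paralog IDI2 at most 3, and IDI2-AS1, which overlaps IDI1, between 1 and 17.

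A promoter window of 4 members is shown because the letters of the CCAAT box recur in them. They are RefSeq windows of 300 bases on GRCh38.p14, from 250 bases before the start of transcription to 50 after it, and capitals mark the CCAAT box or its complement ATTGG, the site of the factor NF-Y that acts with SREBP at sterol-regulated promoters. The window of HMGCS1 is chr5:43313363-43313662 on the minus strand, the first of 2 listed for the gene, that of FDPS chr1:155308616-155308915 on the plus strand, that of INSIG1 chr7:155297628-155297927 on the plus strand and that of LSS chr21:46228725-46229024 on the minus strand.
HMGCS1: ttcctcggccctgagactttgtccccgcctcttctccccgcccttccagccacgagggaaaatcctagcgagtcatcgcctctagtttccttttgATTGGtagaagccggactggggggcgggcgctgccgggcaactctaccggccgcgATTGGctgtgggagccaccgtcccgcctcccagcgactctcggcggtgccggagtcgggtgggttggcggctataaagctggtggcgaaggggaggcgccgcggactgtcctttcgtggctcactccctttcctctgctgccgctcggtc
FDPS: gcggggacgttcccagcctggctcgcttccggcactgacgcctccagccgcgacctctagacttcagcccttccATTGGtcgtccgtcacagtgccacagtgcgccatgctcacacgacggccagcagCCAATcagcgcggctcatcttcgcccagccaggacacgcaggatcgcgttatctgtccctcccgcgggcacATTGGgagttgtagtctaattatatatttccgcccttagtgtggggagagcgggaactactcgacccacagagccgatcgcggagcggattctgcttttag
INSIG1: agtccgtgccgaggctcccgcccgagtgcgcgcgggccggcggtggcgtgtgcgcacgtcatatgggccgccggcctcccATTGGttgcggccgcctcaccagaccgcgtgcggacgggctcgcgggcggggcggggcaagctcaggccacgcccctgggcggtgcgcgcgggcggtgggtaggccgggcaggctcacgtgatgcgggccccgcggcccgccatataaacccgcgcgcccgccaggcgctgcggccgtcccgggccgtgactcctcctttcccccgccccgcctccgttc
LSS: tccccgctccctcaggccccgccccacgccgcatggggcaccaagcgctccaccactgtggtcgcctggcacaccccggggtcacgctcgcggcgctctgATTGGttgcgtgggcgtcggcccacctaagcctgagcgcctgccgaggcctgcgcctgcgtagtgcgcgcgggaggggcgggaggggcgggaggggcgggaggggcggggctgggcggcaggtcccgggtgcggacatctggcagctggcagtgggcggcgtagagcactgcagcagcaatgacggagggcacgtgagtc
The table holds 8 windows for 5 members, with 2 for HMGCS1 and 3 for IDI1. The CCAAT letters, searched on both strands, lay in 6 of the 8 windows, beside 34.61% of 35116 promoters. The second HMGCS1 window, chr5:43313132-43313431, which overlaps the one shown, and 1 of the 3 IDI1 windows held none. FDPS held 3 of them, at −176, −122 and −51 from the start, the HMGCS1 window shown held them at −155 and −100, LSS at −150 and INSIG1 at −170. The letters TCACNCCA, a core of the sterol regulatory element, lay in none of the 8 windows and in 3.95% of all promoters. The shorter form CACNCCA lay in 2 of the 8, that of INSIG1 and 1 of IDI1, and in 17.59% of all promoters. A match of letters in a window is a description and says nothing of binding.

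The first comparison asked how the pathway responded to oxaliplatin, a platinum drug that crosslinks DNA, in the sensitive line. In HCT116 cells 6 of the 7 genes fell, among them HMGCS1 to about 0.352 of its control level, and LSS did not pass the test. Levels are CPM after normalization of library size, with SQLE taken from the second table. HMGCS1, the enzyme that forms HMG-CoA at the entry of the pathway, measured 105.1, 102.8 and 77.8 CPM in the 3 control samples and 19.5, 30.9 and 50.3 CPM after oxaliplatin. The groups did not overlap, although the oxaliplatin samples differed among themselves by more than the controls did in relative terms. By edgeR's quasi-likelihood test its log2 fold change (log2FC) came to −1.50 (SE 0.29, adjusted p = 0.000636).

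IDI1, which isomerizes the isoprenoid building block, measured 132.1, 133.7 and 121.9 CPM in the controls and 46.5, 66.4 and 58.6 CPM after oxaliplatin. All treated samples were below all controls, with a log2FC of −1.18 (SE 0.30, adjusted p = 0.00707). FDPS, which builds farnesyl diphosphate, measured 296.4, 305.1 and 284.3 CPM in the controls and 215.0, 224.9 and 166.1 CPM after oxaliplatin. Its fall was the smallest of the 6, a log2FC of −0.55 (SE 0.18, adjusted p = 0.0355), and the groups did not overlap.

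FDFT1, squalene synthase, commits farnesyl diphosphate to sterols. FDFT1 lies at chr8:11795573-11839395 and SQLE at chr8:124998497-125022283 on GRCh38. FDFT1 measured 376.2, 359.8 and 275.6 CPM in the controls and 149.7, 168.5 and 196.0 CPM after oxaliplatin, a log2FC of −0.98 (SE 0.26, adjusted p = 0.00906). SQLE, the epoxidase of squalene, measured 108.3, 115.1 and 96.5 CPM in the controls and 64.4, 51.9 and 80.2 CPM after oxaliplatin, a log2FC of −0.70 (SE 0.20, adjusted p = 0.0168). For both genes every treated sample was below every control. LSS, which closes the ring to lanosterol, measured 122.6, 129.0 and 141.9 CPM in the controls and 110.1, 98.9 and 141.0 CPM after oxaliplatin. The LSS samples overlapped, and the log2FC was −0.17 with a 95% interval from −0.59 to 0.25 (adjusted p = 0.686).

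INSIG1, the sterol-sensing brake of the loop, measured 86.8, 83.1 and 89.4 CPM in the controls and 45.1, 44.2 and 46.1 CPM after oxaliplatin, and its treated samples lay within 44.2 to 46.1 CPM, well apart from the controls. The log2FC was −0.94 (SE 0.21, adjusted p = 0.00249), and the mean was 47.8% lower.

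The 6 of 7 genes called in HCT116 stand beside 17.4% of the 22833 genes tested that were called in either direction in this comparison. Among all genes tested, 8.43% were called lower, and among the 13235 expressed genes, taken as genes averaging 10 counts or more per sample, 29.5% were called. The 6 members whose samples were lower without overlap stand beside 17.57% of all genes. The median log2FC was −0.94 over the 7 members and −0.08 over the expressed genes. With each library left out in turn, between 2 and 5 members were called. HMGCS1 and INSIG1 were called under each of these 6 removals, with adjusted p of at most 0.0157 and 0.0231. FDPS was called under none of the 6. Without HCT116 oxaliplatin replicate 1 only HMGCS1 and INSIG1 were called, and without HCT116 oxaliplatin replicate 2 these and IDI1.

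GC content moved with this comparison. The median log2FC of expressed genes was −0.71 for transcripts under 40% GC, −0.54 from 40 to 45%, −0.23 from 45 to 50%, 0.10 from 50 to 55% and 0.47 at 55% or more. The GC content of the longest transcript was 38.95% in HMGCS1, 41.07% in IDI1, 44.81% in INSIG1, 46.52% in SQLE and 46.95% in FDFT1, and it was 55.97% in FDPS and 58.08% in LSS. All 7 members lay below the median of their own GC class. When the trend with GC was taken out of each library, an alternative chosen after seeing the data, the log2FC of the 7 genes lay between −0.83 and −0.46, all negative. Only HMGCS1 (−0.83, adjusted p = 0.00671) and FDPS (−0.82, adjusted p = 0.000543) were then called, beside 10.3% of all genes. The calls of IDI1 (adjusted p = 0.254), FDFT1 (adjusted p = 0.131), SQLE (adjusted p = 0.16) and INSIG1 (adjusted p = 0.125) were lost, and LSS moved from −0.17 to −0.51 (adjusted p = 0.0607). Whether the GC dependence of these libraries arose in the cells or in the sequencing was not tested.

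The second comparison asked the same of the resistant line. In HCT116 oxpl-R cells INSIG1 fell by about as much as in HCT116. It was the only one of the 7 genes called, beside 6.14% of all genes tested and 10.4% of expressed genes. INSIG1 measured 83.9, 75.4 and 53.7 CPM in the HCT116 oxpl-R controls and 43.8, 41.8 and 27.4 CPM after oxaliplatin, so the lowest control was above the highest treated sample. Its log2FC was −0.91 (SE 0.21, adjusted p = 0.00565), and it was called under each of the 6 removals of a library, with adjusted p of at most 0.0486. With the GC trend removed it was −0.81 (adjusted p = 0.0136). INSIG1 was thus called in both lines as deposited, and with the GC trend removed in HCT116 oxpl-R but not in HCT116.

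The other 6 genes overlapped between control and oxaliplatin samples of HCT116 oxpl-R, beside 9.118% of all genes that were lower without overlap. HMGCS1 measured 63.2, 43.7 and 70.5 CPM in the controls and 36.6, 34.7 and 53.4 CPM after oxaliplatin, a log2FC of −0.51 (adjusted p = 0.421). IDI1 ranged from 75.5 to 133.5 CPM in the controls and from 39.5 to 90.1 CPM after oxaliplatin, a log2FC of −0.72 (adjusted p = 0.195). Its mean was lower by 39.2%, but the replicates spread over more than that difference. IDI1 was called without HCT116 oxpl-R oxaliplatin replicate 2 (adjusted p = 0.0445), and without all 4 HCT116 oxpl-R libraries of replicate 3 its log2FC was −0.84 (adjusted p = 0.0213).

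FDPS measured 331.7 CPM in 1 HCT116 oxpl-R oxaliplatin sample and 204.4 and 203.7 CPM in the other two, against 295.5 to 337.5 CPM in the controls. The log2FC was −0.34 (adjusted p = 0.371), and without HCT116 oxpl-R oxaliplatin replicate 1, the high sample, −0.62 (adjusted p = 0.0333). FDFT1 measured 248.8, 199.9 and 344.2 CPM in the controls and 278.5, 201.8 and 405.0 CPM after oxaliplatin, a log2FC of 0.16 with a 95% interval from −0.35 to 0.67. SQLE (−0.25, interval −0.65 to 0.16) and LSS (−0.03, interval −0.45 to 0.39) also did not pass the test. The median log2FC was −0.34 over the 7 genes and 0.01 over all expressed genes.

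Whether the responses of the lines differed was tested by the interaction of line and oxaliplatin. None of the 7 genes was called, beside 3% of all genes tested, although 2 of 7 had an unadjusted p under 0.05, and DESeq2 and limma also called 0. All 7 differences were positive, and those of IDI1, LSS, INSIG1 and FDPS changed sign under at least 1 alternative or removal of a library. FDFT1 had the largest, 1.14 on the log2 scale (SE 0.37, adjusted p = 0.0947), with a 95% interval from 0.41 to 1.86. It was called without HCT116 oxpl-R control replicate 3 (adjusted p = 0.0463) and without the 4 HCT116 oxpl-R libraries of replicate 3 (adjusted p = 0.0155). The removal of the 4 was chosen after seeing the data, in which they held the highest FDFT1 of their groups. HMGCS1 differed by 0.99 (SE 0.41, adjusted p = 0.217, interval 0.19 to 1.80) and was called without HCT116 oxaliplatin replicate 3 (adjusted p = 0.0372). For INSIG1 the difference was 0.02 with an interval from −0.56 to 0.61. With the GC trend removed, the difference was 0.89 for FDFT1 (adjusted p = 0.301) and 0.43 for HMGCS1 (adjusted p = 0.555), and it turned negative for IDI1 (−0.07) and INSIG1 (−0.28).

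**Figure D1:**
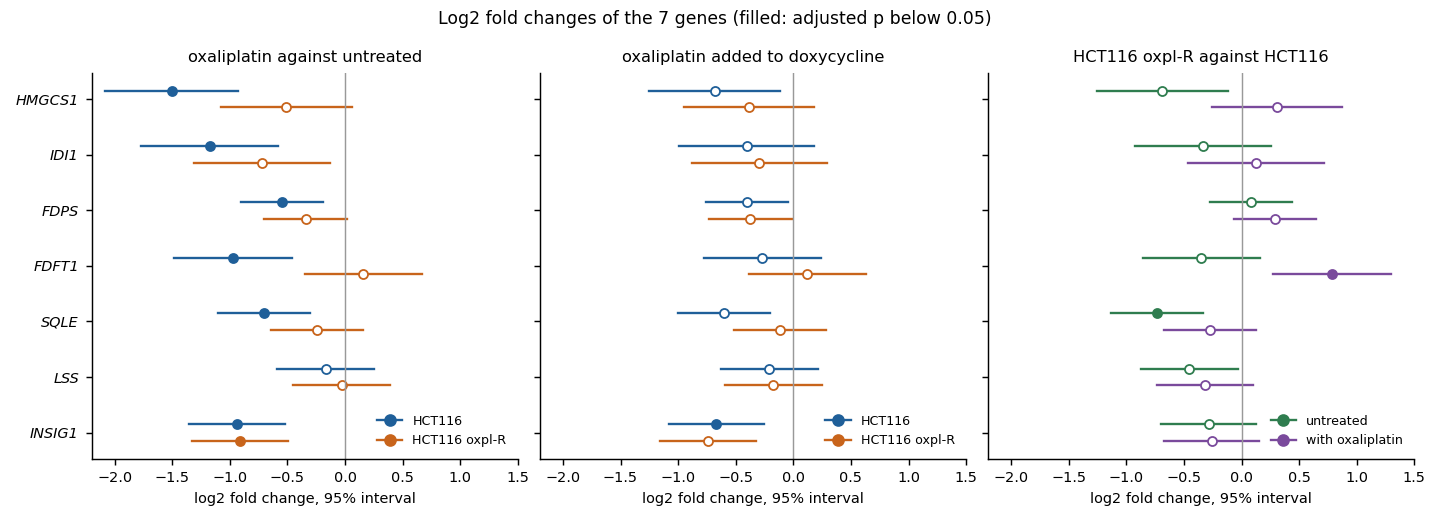
Log2FC of the 7 genes (x axis) with 95% intervals, for oxaliplatin against untreated cells, for oxaliplatin added to doxycycline and for HCT116 oxpl-R against HCT116. Filled points have an adjusted p below 0.05. In the left panel 6 genes are filled in HCT116 and INSIG1 alone in HCT116 oxpl-R.

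Oxaliplatin was also compared between cells that had received doxycycline. In HCT116, INSIG1 fell (log2FC −0.67, SE 0.21, adjusted p = 0.0466) from 77.2, 81.7 and 72.7 CPM to 56.3, 44.6 and 44.96 CPM. It was the only member called, beside 8.01% of all genes tested and 13.6% of expressed genes. The groups did not overlap. Without the 4 HCT116 oxpl-R libraries of replicate 3, HMGCS1, INSIG1 and SQLE were called, in a fit whose share of all genes called was not computed. The INSIG1 call was lost with each of the 6 libraries left out in turn, and with the GC trend removed the log2FC was −0.34 (adjusted p = 0.458). SQLE was also lower in every sample, from 105.6, 107.0 and 82.4 CPM to 72.8, 58.1 and 63.6 CPM (log2FC −0.60, adjusted p = 0.0727). Which member was called varied with the method, since DESeq2 and the fit of the compared groups alone called SQLE (adjusted p = 0.0425 and 0.0375) and not INSIG1, and with the GC trend removed FDPS alone was called. HMGCS1 and FDPS were lower without overlap as well, which makes 4 of 7 genes beside 14.26% of all genes. The other 3, IDI1, FDFT1 and LSS, overlapped. In HCT116 oxpl-R, 0 of 7 genes were called beside 2.78% of all genes, with 2 at an unadjusted p under 0.05 and 1, INSIG1, by DESeq2 and by limma. INSIG1 measured 85.2, 76.3 and 55.5 CPM with doxycycline and 57.4, 41.9 and 30.8 CPM with both agents, lower in each replicate of the same number though the groups overlapped (log2FC −0.74, adjusted p = 0.0531). Here same-numbered samples deviated together, and with the replicate block INSIG1 was called (log2FC −0.75, adjusted p = 0.0126). Whether doxycycline changed the response to oxaliplatin was tested in each line. In HCT116 0 of 7 genes were called beside 0.0131% of all genes, and in HCT116 oxpl-R 0 of 7 beside 0.0438%, with 0 at an unadjusted p under 0.05 and 0 by DESeq2 and limma in either line.

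Between the untreated lines SQLE was lower in HCT116 oxpl-R, and it was the only one of the 7 genes called. This stands beside 14.1% of all genes tested and 23.3% of expressed genes, so the count of 1 of 7 was not above the background of expressed genes. SQLE measured 108.3, 115.1 and 96.5 CPM in HCT116 and 74.1, 61.1 and 57.2 CPM in HCT116 oxpl-R, a log2FC of −0.73 (SE 0.20, adjusted p = 0.0152). All HCT116 oxpl-R samples were below all HCT116 samples for SQLE, HMGCS1 and LSS, 3 of 7 genes beside 17.36% of all genes. HMGCS1 had a log2FC of −0.69 (SE 0.29, adjusted p = 0.122) and LSS, at 105.2, 99.4 and 82.3 CPM in HCT116 oxpl-R, one of −0.46 (SE 0.21, adjusted p = 0.177). The other 4 overlapped, with a log2FC of −0.35 for FDFT1, −0.34 for IDI1, −0.28 for INSIG1 and 0.08 for FDPS. The SQLE call was lost without HCT116 control replicate 2 (adjusted p = 0.0659), HCT116 oxpl-R control replicate 2 (0.0606) or HCT116 oxpl-R control replicate 3 (0.0732), and was kept with the GC trend removed (log2FC −0.78, adjusted p = 0.00591). HMGCS1 was called with the GC trend removed (−0.60, adjusted p = 0.035) and without the 4 HCT116 oxpl-R libraries of replicate 3 (−0.83, adjusted p = 0.00471). FDFT1 was called without those 4 libraries too (−0.59, adjusted p = 0.0384), a removal chosen after seeing the data.

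SQLE was lower in HCT116 oxpl-R with doxycycline as well. It measured 105.6, 107.0 and 82.4 CPM in HCT116 and 65.9, 60.0 and 49.3 CPM in HCT116 oxpl-R (log2FC −0.75, SE 0.20, adjusted p = 0.0137). LSS was called in the same comparison (log2FC −0.62, SE 0.21, adjusted p = 0.0493), which makes 2 of 7 beside 14.3% of all genes and 23.8% of expressed genes. Both calls depended on single libraries. SQLE was lost without HCT116 E1A replicate 1 (0.0628) or 2 (0.069) or HCT116 oxpl-R E1A replicate 3 (0.0735), and LSS with 5 of the 6 libraries, all but HCT116 oxpl-R E1A replicate 1. DESeq2 and limma each called 1 of 7, SQLE. Without the 4 HCT116 oxpl-R libraries of replicate 3, 4 genes were called, FDFT1, HMGCS1, LSS and SQLE. The share of all genes called in that fit was not computed.

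After oxaliplatin FDFT1 was higher in HCT116 oxpl-R, at 278.5, 201.8 and 405.0 CPM against 149.7, 168.5 and 196.0 CPM in HCT116 (log2FC 0.78, SE 0.26, adjusted p = 0.0242). It was the only member called, beside 26% of all genes tested and 42.9% of expressed genes, both above the 1 of 7 found. The FDFT1 samples did not overlap, but the highest one weighed heavily. Without HCT116 oxpl-R oxaliplatin replicate 3 the adjusted p was 0.359, without HCT116 oxaliplatin replicate 1 it was 0.143 and without HCT116 oxaliplatin replicate 2 it was 0.0873. Without the 4 HCT116 oxpl-R libraries of replicate 3 the log2FC was 0.49 (adjusted p = 0.0714). Limma called 0 of 7 here. With the GC trend removed FDFT1 was not called (log2FC 0.55, adjusted p = 0.193), while 1 other member was called higher. The SQLE difference between the lines was −0.28 after oxaliplatin (adjusted p = 0.394). With doxycycline and oxaliplatin 0 of 7 genes were called beside 19.4% of all genes, with 1 at an unadjusted p under 0.05, LSS (log2FC −0.58, adjusted p = 0.0536), which DESeq2 and limma called.

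None of the 7 genes passed the test for doxycycline alone. In HCT116, 0 of 7 genes were called beside 0.407% of all genes, and in HCT116 oxpl-R 0 of 7 beside 0.21%. Added to oxaliplatin, it gave 0 of 7 beside 0.0832% in HCT116 and 0 of 7 beside 1.41% in HCT116 oxpl-R. In these 4 comparisons 0 members had an unadjusted p under 0.05, and DESeq2 and limma called 0. For a difference in the response to doxycycline between the lines, 0 of 7 genes were called, beside 0.00876% of all genes, also 0 without adjustment and 0 by the other tools. In HCT116, however, 4 of 7 genes were lower with doxycycline without overlap, beside 8.619% of all genes. HMGCS1 measured 58.4, 59.9 and 72.3 CPM, against 77.8 to 105.1 CPM in the controls, and FDFT1 measured 242.2, 222.7 and 251.5 CPM against 275.6 to 376.2 CPM. IDI1 and INSIG1 were the other 2. Here too the log2FC of expressed genes moved with GC, from a median of −0.29 under 40% GC to 0.13 at 55% or more. The 4 genes lie between 38.95% and 46.95% GC, as does SQLE, which overlapped. FDPS and LSS, at 55.97% and 58.08%, overlapped too. With the GC trend removed, the median of the 7 genes was −0.18, beside −0.16 as deposited, and 0 were called. When only the 6 samples of HCT116 control and HCT116 E1A entered the fit, 3 genes were called lower, HMGCS1, IDI1 and FDFT1. The same fit called 7 of the 35 other cholesterol genes and 2 of the 11 fatty acid genes. The share of all genes it called was not computed. In HCT116 oxpl-R no member was free of overlap.

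Over all 8 groups, HCT116 control held the highest mean of 5 of the 7 genes, HMGCS1, IDI1, FDFT1, SQLE and INSIG1. The highest mean was in HCT116 oxpl-R control for FDPS and in HCT116 E1A for LSS. Neighbours in the order of means mostly overlapped. They were apart between HCT116 control (95.2 CPM) and HCT116 E1A (63.5 CPM) for HMGCS1 and between the same groups for INSIG1 (86.4 and 77.2 CPM). For SQLE the gap lay between HCT116 E1A (98.3 CPM) and HCT116 oxaliplatin (65.5 CPM), below which the order ran on to 54.0 CPM in HCT116 oxpl-R E1A + oxaliplatin without a break. INSIG1 had its 4 oxaliplatin-treated groups, at 37.7 to 48.6 CPM, below its 4 groups without oxaliplatin, at 71.0 to 86.4 CPM. LSS had its 4 HCT116 groups, at 114.6 to 132.4 CPM, above its 4 HCT116 oxpl-R groups, at 76.4 to 95.7 CPM. For LSS the line and for INSIG1 the treatment thus ordered the means, with neighbours that overlapped.

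The members did not vary as 1 block between replicate libraries. Over 24 samples, deviations of log2 CPM from the group means were correlated between HMGCS1 and FDFT1 (r = 0.757) and among SQLE, LSS and INSIG1 (r = 0.732, 0.769 and 0.699 for the 3 pairs), while FDFT1 and INSIG1 were opposed (r = −0.77). In all 4 HCT116 oxpl-R groups replicate 3 held the highest FDFT1, at 344.2, 296.2, 405.0 and 310.7 CPM. The same 4 libraries held the lowest INSIG1 of their groups, at 53.7, 55.5, 27.4 and 30.8 CPM, and the lowest SQLE, at 57.2, 49.3, 43.7 and 35.6 CPM. Without these 4 libraries r was 0.796 between HMGCS1 and FDFT1, −0.439 between FDFT1 and INSIG1 and 0.452 between SQLE and INSIG1 over 20 samples. These correlations describe genes read from the same libraries, with a shared depth and base composition.

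The rest of the pathway was read from a list of 35 further cholesterol genes in 5 roles, all of which were measured. Among its 15 enzymes of synthesis, oxaliplatin in HCT116 lowered 6 and raised 1, and in HCT116 oxpl-R it lowered 2 and raised 1. Among expressed genes 29.5% were called in either direction in HCT116 and 10.4% in HCT116 oxpl-R. ACAT2, the thiolase that starts the pathway, fell in HCT116 (log2FC −1.21, SE 0.26, adjusted p = 0.00147) from a mean of 58.3 to 25.2 CPM, and was not called with the GC trend removed (−0.64, adjusted p = 0.0775). TM7SF2, a sterol reductase of the late pathway, rose in both lines, from 28.2 to 58.0 CPM in HCT116 (log2FC 1.04, SE 0.16, adjusted p = 6.4e-05) and from 22.7 to 46.6 CPM in HCT116 oxpl-R (log2FC 1.04, SE 0.16, adjusted p = 7.04e-05). EBP, a sterol isomerase, fell in HCT116 oxpl-R (log2FC −0.87, adjusted p = 0.00095) from 128.5 to 70.1 CPM and stood at 97.3 and 99.2 CPM in HCT116. EBP was also the only 1 of the 35 genes called for a difference in response between the lines (−0.90, SE 0.24, adjusted p = 0.0358), and with single libraries left out between 0 and 3 of the 35 were called there.

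Of the 6 genes that control SREBP, MBTPS2, the protease that releases it in the Golgi, fell in HCT116 after oxaliplatin (log2FC −1.06, SE 0.24, adjusted p = 0.00284), and SCAP, the escort, rose (0.54, SE 0.19, adjusted p = 0.0454). With the GC trend removed neither was called, with MBTPS2 at −0.27 (adjusted p = 0.43) and SCAP at 0.083 (adjusted p = 0.799). SREBF2, the gene of SREBP2, had a log2FC of 0.12 in HCT116 (adjusted p = 0.85) and of −0.04 in HCT116 oxpl-R (adjusted p = 1), with means between 215.3 and 357.2 CPM over the 8 groups. SREBF1 was called in neither line after oxaliplatin (0.16 and −0.39). With the GC trend removed these values were −0.33 (adjusted p = 0.241) in HCT116 and −0.47 (adjusted p = 0.0843) in HCT116 oxpl-R. After oxaliplatin SREBF1 was lower in HCT116 oxpl-R than in HCT116 (log2FC −0.84, SE 0.20, adjusted p = 0.00187). In that comparison the median log2FC of expressed genes fell with GC, from 0.56 under 40% to −0.36 at 55% or more. None of the 8 genes of uptake and intracellular transport was called after oxaliplatin in either line, while 2 of them lay lower and 1 higher in untreated HCT116 oxpl-R. SOAT1, which esterifies cholesterol for storage, was lower there (log2FC −1.48, SE 0.37, adjusted p = 0.00655).

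Among the 6 genes of LXR and efflux, which answer to a surplus of sterols, none was called lower in any of these 3 comparisons. ABCG1, a cholesterol exporter, had means of 1.302 to 2.01 CPM in the 4 HCT116 groups and of 14.3 to 21.3 CPM in the 4 HCT116 oxpl-R groups (untreated log2FC 3.45, SE 0.31, adjusted p = 6.98e-10). ABCA1, the other main exporter, rose after oxaliplatin in HCT116 oxpl-R from 1.01 to 4.45 CPM (log2FC 2.13, SE 0.49, adjusted p = 0.00475) and measured 0.774 and 0.648 CPM in HCT116. NR1H3, the receptor LXR-alpha, rose in both lines (0.66, adjusted p = 0.00903, and 0.62, adjusted p = 0.0277), but with the GC trend removed it was called in HCT116 oxpl-R (0.54, adjusted p = 0.0122) and not in HCT116 (0.41, adjusted p = 0.0556). Over the 35 genes 4 were called higher and 7 lower in HCT116 after oxaliplatin, 3 and 2 in HCT116 oxpl-R, and 3 and 7 in untreated HCT116 oxpl-R against HCT116. These 11, 5 and 10 of 35 stand beside 29.5%, 10.4% and 23.3% of expressed genes called, so the list as a whole lay near the background. Their median log2FC was −0.12, 0.08 and −0.23, beside −0.08, 0.01 and −0.02 over all expressed genes. With the GC trend removed 2 of the 35 were called in HCT116 after oxaliplatin, among them TM7SF2 (0.53, adjusted p = 0.0103). Without HCT116 oxaliplatin replicate 1, 5 of the 35 were called, and without HCT116 control replicate 1 or 2, 7.

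Fatty acid synthesis, the branch driven by the related factor SREBP1, was read from 11 genes. In HCT116 after oxaliplatin 4 of 11 fell and none rose, beside 29.5% of expressed genes called, with a median of −0.45, led by ELOVL6, an elongase of fatty acids (log2FC −1.13, adjusted p = 0.0267), SCD, the stearoyl-CoA desaturase (−1.003, adjusted p = 0.00703), and ACACA, acetyl-CoA carboxylase (−0.79, adjusted p = 0.0118). Without HCT116 oxaliplatin replicate 1 or 2 there were 0 calls, and without any of the 3 HCT116 controls 2. With the GC trend removed 1 gene was called, FASN, fatty acid synthase, which was not among the 4 and was named after its value was seen (−0.94, adjusted p = 0.00149). In HCT116 oxpl-R 0 of 11 were called, with 3 at an unadjusted p under 0.05, 2 by DESeq2 and 0 by limma. Untreated HCT116 oxpl-R cells held lower levels of 6 and a higher level of 1, the desaturase FADS1 (0.93, SE 0.20, adjusted p = 0.001), with a median of −0.72. These 7 of 11 stand beside 23.3% of expressed genes called. SCD measured 2187 CPM in HCT116 control and 1155 CPM in HCT116 oxpl-R control (log2FC −0.92, SE 0.26, adjusted p = 0.0136). The 7 calls became 4 without HCT116 control replicate 3 and 3 without HCT116 oxpl-R control replicate 3.

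**Figure D2:**
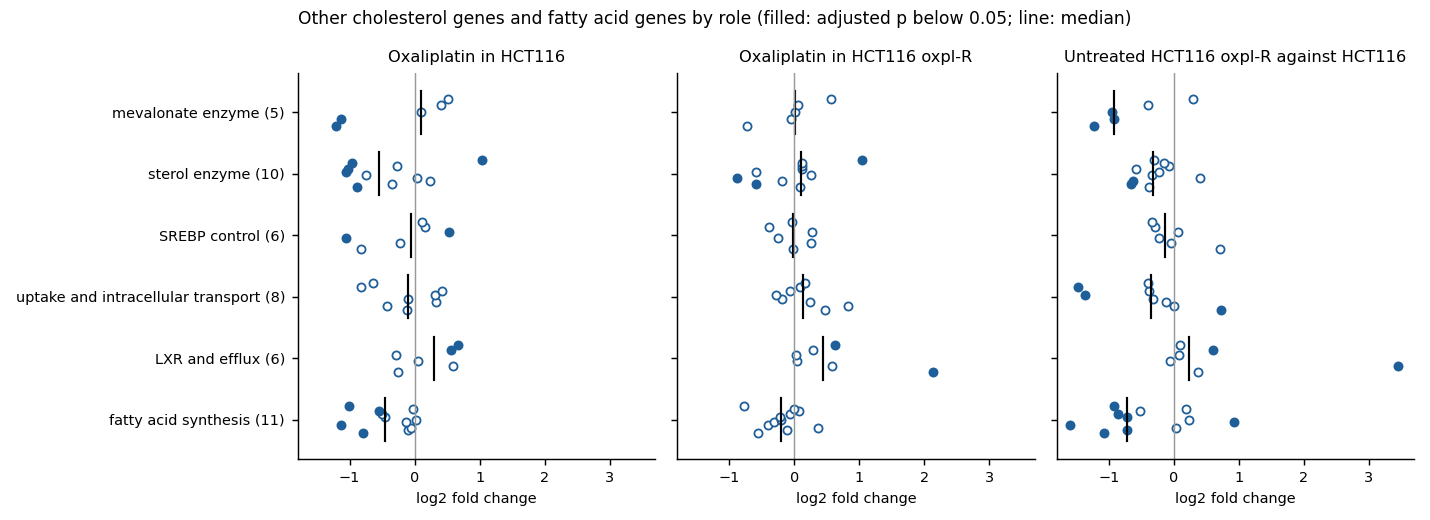
Log2FC (x axis) of the 35 other cholesterol genes and 11 fatty acid genes by role, for oxaliplatin in each line and for untreated HCT116 oxpl-R against HCT116. Points are genes, filled where the adjusted p is below 0.05, and black lines are medians. The fatty acid row has 4 filled points in the left panel, none in the middle one and 7 in the right one.

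The genes whose levels followed the members most closely were ranked by the Pearson coefficient of log2(CPM + 1) with the mean of the 7 standardized members, over 24 samples and 8884 genes. ATP5F1A, a subunit of the mitochondrial ATP synthase, came first (r = 0.955), then ACSL3, which activates fatty acids (r = 0.943), and AFG2A (r = 0.901). The other 7 of the top 10 were NSMAF, ORC2, LARP1B, CLTC, HNRNPA2B1, RAD21 and NUCKS1, down to r = 0.887. The GC content of the 9 with a known value ran from 35.71% to 45.51%, and none of the 10 is on the lists above. The samples share their libraries, with their depth and base composition, and the coefficients are a description.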

How the data were processed

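RNA of 24 samples (8 groups, 3 biological replicates each) was sequenced as paired reads. The authors trimmed reads with Trimmomatic, quantified transcripts with Salmon 1.6.0, its options against sequence and GC bias switched on, and collapsed the estimates to genes with tximport. Both deposited tables hold estimated counts: the second is named for TPM, but its columns sum to between 28004261 and 42613322, and over shared genes its totals equal those of the first within 1%. The last row of each table was incomplete and was dropped, which left 33113 and 37967 genes. Estimated counts were rounded to whole numbers. Groups came from the sample labels.

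All 24 samples entered one edgeR 4.0.16 quasi-likelihood fit (R 4.3.3, TMM normalization) with 8 group means, from which 12 comparisons and 4 interaction terms were drawn. P-values were adjusted by Benjamini-Hochberg within the fit of each table, over its genes not at 0 throughout. The 22833 genes tested are those of the first table and those held by the second alone. A gene was called at an adjusted p below 0.05 with no fold cutoff. SQLE was tested in the same fit of the second table, since its row lies beyond the end of the first. Normalized CPM are given per sample. The 95% intervals use the normal distribution and an SE derived from the log2FC and its F value. They are narrower than the test implies, so an interval can leave out 0 where the unadjusted p is above 0.05. Alternatives were RLE normalization, filterByExpr, a replicate block, the second table in edgeR and in limma 3.58.1 (pseudocounts 1 and 0.1), DESeq2 1.42.0, the groups of a comparison alone, and each library left out in turn. Removal of GC trends, of GC and length trends (lowess, span 0.3), and of the 4 HCT116 oxpl-R libraries of replicate 3 was added after seeing the data. Shares of all genes called were computed for the main fit and for the removal of GC trends alone. The main fit was tested on counts simulated for oxaliplatin in HCT116, with 1 spread for all genes. It recovered 19.4% of 67 genes changed 1.5-fold, 86.6% of 67 changed 2-fold and 100% of 66 changed 4-fold. Among 18846 genes, 7 unchanged ones were called. A gene that was not called may thus still differ by 1.5-fold or more. The simulated spread was not that of each gene, and no interaction was simulated. The FDFT1 interaction of line and oxaliplatin, for example, was 1.14 on the log2 scale and was not called.

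Positions are from GENCODE 44, an earlier release than the authors' on the same build, joined by symbol. Promoters are from RefSeq. The members and gene lists were chosen with earlier results of these data known. Named genes are the 7 members, SREBF1, SREBF2 and SCAP, the 3 called genes with the largest change per list and comparison, and the 10 genes most like the members. Not every gene past this rule is reported here. Same-numbered samples deviated together (every r above 0.1) in 2 of the 12 comparisons, with r of 0.141, 0.188 and 0.253 between the lines after oxaliplatin and 0.419, 0.48 and 0.529 for oxaliplatin added to doxycycline in HCT116 oxpl-R. For replicates 1, 2 and 3 of HCT116 oxpl-R, r was 0.0839, 0.465 and 0.547 for oxaliplatin and 0.028, 0.508 and 0.678 for doxycycline. These missed the rule through replicate 1 alone. For oxaliplatin in HCT116 all 3 r were negative. The main fit held no replicate term. P-values and intervals measure the spread between these samples.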

Additional observations from a re-analysis of the deposited data

How the results depend on the processing

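Of the member log2 fold changes given in the text, 537 values under other settings or with a library left out kept their direction and side of the threshold, 37 passed it anew, 65 no longer passed it and 32 changed sign. The causes were not tested. Small differences and the 3 samples per group limit what can be told apart.

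Members called between the untreated lines went from 1 to 2 with the replicate block or the GC trend removed, and to 3 with only the compared groups in the fit or without the 4 HCT116 oxpl-R libraries. Between the lines with doxycycline they went from 2 to 1 under RLE, filterByExpr, the second table in edgeR and limma, GC and length removal and DESeq2, and to 4 without the 4 libraries. After oxaliplatin they went from 1 to 0 under limma, the compared groups alone and without the 4 libraries. They went to 2 with GC and length removed and stayed at 1, though not FDFT1, with GC removed. With both agents they went from 0 to 1 under RLE, filterByExpr, the replicate block, the second table in edgeR and limma, GC removal and DESeq2. For oxaliplatin in HCT116 they went from 6 to 2 (GC) and 3 (GC and length), and in HCT116 oxpl-R from 1 to 2 (GC and length, 4 libraries). With doxycycline present, HCT116 went from 1 to 0 under RLE, filterByExpr and the second table in edgeR and limma, and to 3 without the 4 libraries. HCT116 oxpl-R went from 0 to 1 under RLE, filterByExpr, the replicate block, the second table, GC and length removal and DESeq2. For doxycycline in HCT116, 0 became 3 with the compared groups alone. For the interaction of line and oxaliplatin, 0 became 1 with the replicate block and without the 4 libraries. Outside the pair named in the methods, at least 1 of the 3 r between same-numbered samples lay at or below 0.1. Within HCT116 oxpl-R, replicates 2 and 3 still deviated together for oxaliplatin (r of 0.465 and 0.547) and for doxycycline (0.508 and 0.678). For oxaliplatin in HCT116 all 3 r were negative. In the comparisons outside that pair the block called HMGCS1 between untreated lines (adjusted p = 0.0383), LSS with both agents and FDFT1 for the interaction (adjusted p = 0.0282). It changed no other member count there.

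Of the other cholesterol genes, calls for oxaliplatin in HCT116 went from 11 to 2 (GC) and 4 (GC and length), and in HCT116 oxpl-R from 5 to 3 (limma with 0.1, compared groups) and 9 (GC and length). With doxycycline present they went from 2 to 4 (limma, GC, 4 libraries, compared groups), 5 (filterByExpr) or 6 (DESeq2) in HCT116, and from 2 to 1 (RLE, compared groups) or 4 (GC and length) in HCT116 oxpl-R. Between the lines with doxycycline they went from 9 to 14 (GC and length). For doxycycline they went from 0 to 7 in HCT116 (compared groups), and added to oxaliplatin in HCT116 oxpl-R from 0 to 1 (limma, GC, DESeq2) or 2 (GC and length). For the interaction, 1 became 2 (replicate block), 3 (DESeq2, 4 libraries) or 0 (compared groups). Fatty acid genes went from 4 to 2 (second table, GC and length) or 1 (GC) for oxaliplatin in HCT116, and from 0 to 1 (filterByExpr, replicate block, 4 libraries) or 2 (GC and length, DESeq2) in HCT116 oxpl-R. With doxycycline present they went from 3 to 1 (second table in edgeR) or 5 (4 libraries) in HCT116 and from 0 to 1 (replicate block, GC and length, DESeq2, 4 libraries) in HCT116 oxpl-R. Between the lines they went from 5 to 3 after oxaliplatin (compared groups) and with both agents (4 libraries), and for doxycycline in HCT116 from 0 to 2 (compared groups).

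The log2FC of FDPS between untreated lines turned to −0.018 with GC and length removed, and that of LSS after oxaliplatin in HCT116 oxpl-R to 0.094 without the 4 libraries. The interaction of IDI1 turned to −0.069 (GC) and −0.080 (GC and length). That of LSS turned to −0.00095 in the second table with edgeR and to −0.0013 with limma at either pseudocount. That of INSIG1 turned to −0.058 under RLE and DESeq2, −0.052 with filterByExpr, −0.079 in the second table with edgeR, −0.089 with limma at either pseudocount, −0.28 (GC), −0.26 (GC and length) and −0.027 (compared groups).

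With 1 library left out, member calls ranged from 0 to 1 between untreated lines, 0 to 2 with doxycycline, 0 to 1 after oxaliplatin and 0 to 1 with both. They ranged from 2 to 5 for oxaliplatin in HCT116 and 1 to 2 in HCT116 oxpl-R, were 0 with doxycycline present in HCT116 and 0 to 1 in HCT116 oxpl-R, and were 0 to 1 for the interaction. Other cholesterol calls ranged from 4 to 8 between lines with doxycycline, 5 to 11 and 3 to 6 for oxaliplatin in the lines, 1 to 4 and 1 to 2 with doxycycline present, 0 to 1 for doxycycline added to oxaliplatin in HCT116 oxpl-R and 0 to 3 for the interaction. Fatty acid calls ranged from 3 to 6 between untreated lines, 3 to 5 after oxaliplatin, 1 to 6 with both, 0 to 4 and 0 to 1 for oxaliplatin in the lines, and 0 to 3 and 0 to 1 with doxycycline present. The log2FC of LSS ranged from −0.28 to 0.015 in HCT116 and from −0.29 to 0.19 in HCT116 oxpl-R, and that of FDFT1 from −0.14 to 0.40 in HCT116 oxpl-R. Interactions ranged from −0.069 to 0.29 for FDPS, −0.12 to 0.30 for LSS and −0.14 to 0.15 for INSIG1.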
